A study of Mus musculus with 4 samples.

Results

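The immediate early response genes are a set of 39 mouse genes, many of which cells switch on within minutes of a stimulus, without first making new protein. They were followed here in dorsal skin, taken whole, from male C57B6 mice during adult telogen, when hair follicles rest. The members are the 39 named genes whose array probe sets are annotated with that gene alone, out of 18193 genes so annotated, and all 39 had at least 1 such probe set. A middle time of telogen, postnatal day 54 (P54), and a late time, postnatal day 59 (P59), were each measured on 2 arrays of untreated skin, called replicates 1 and 2. All 4 samples shared strain, sex and tissue, and skin was taken after death from shaved backs into an RNA-preserving solution. The labels call the samples biological replicates and do not say how many animals made up a sample, so p-values reflect only how these samples vary. The sources used here give neither the hour of sampling nor the interval between death and removal of the skin. Values are log2 of RMA intensity, and where a gene has several probe sets, that of highest mean log2 intensity stands for it.

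Many immediate early genes encode transcription factors. Fos and Jun proteins pair through leucine zippers to form AP-1, and Egr, Klf and Nr4a proteins bind DNA through zinc fingers. Growth factors, wounding, mechanical strain and stress act through MAP kinases, serum response factor and CREB, which already sit at the promoters of such genes. Other members end the response: Dusp phosphatases remove phosphate from MAP kinases, Socs3 blocks cytokine receptors, Nfkbia holds NF-kB in the cytoplasm and Zfp36 proteins destroy short-lived mRNAs. In skin these genes are known to respond to handling and to injury of the tissue, and AP-1 and Klf4 also act in differentiating keratinocytes.

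The largest differences among the immediate early genes lay between the P54 arrays rather than between P54 and P59. P54 replicate 1 held 5.07-fold more Fos, 3.80-fold more Nr4a1 and 2.43-fold more Atf3 than the next highest array. For Fos, P54 replicate 2 lay close to both P59 arrays, for Nr4a1 it lay close to P59 replicate 1 and above P59 replicate 2, and for Atf3 it lay between them. A smaller, graded difference ran through Rhob, Dusp1, Klf2 and Gadd45g, which were lower on both P59 arrays than on either P54 array. They are among 13 members with separate and lower groups, beside 14.8% of all genes. P54 replicate 1 was also their highest array, by 0.69 to 0.75 on the log2 scale over the next. Their log2 differences without that array were -0.33 to -0.61. Gadd45a was the member with the clearest opposite difference, 1.71-fold higher at P59. No member passed the adjusted threshold of 0.05 in limma, the linear model fitted across all 10916 genes above an intensity filter (Benjamini-Hochberg), and 10 of the 34 members tested had an unadjusted p under 0.05, beside 6.49% of all genes tested.

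Array medians over all probe sets lay between 6.02 and 6.12 on the log2 scale. Precision is limited by having 2 arrays in a group. The tissue label was borne out by its markers: the basal keratin genes Krt5 and Krt14 lay between 12.91 and 13.74 and the fibroblast gene Lum between 13.04 and 13.42 on the 4 arrays. P59 replicate 2 stood apart in RNA quality. The control set for the 3′ end of Gapdh exceeded that for its 5′ end by 0.34, 0.20 and 0.23 on P54 replicates 1 and 2 and P59 replicate 1, and by 4.57, or 23.8-fold, on P59 replicate 2. For Actb the same log2 difference was 0.45, 0.52, 0.18 and 1.64. P54 replicate 1 did not stand apart in this measure. The part of RNA quality in the level of Fos was not tested. In values given without an array, leaving it out leaves 1 sample in its group, whose variation is then not measured. Such values are given without p-values.

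**Figure D1:**
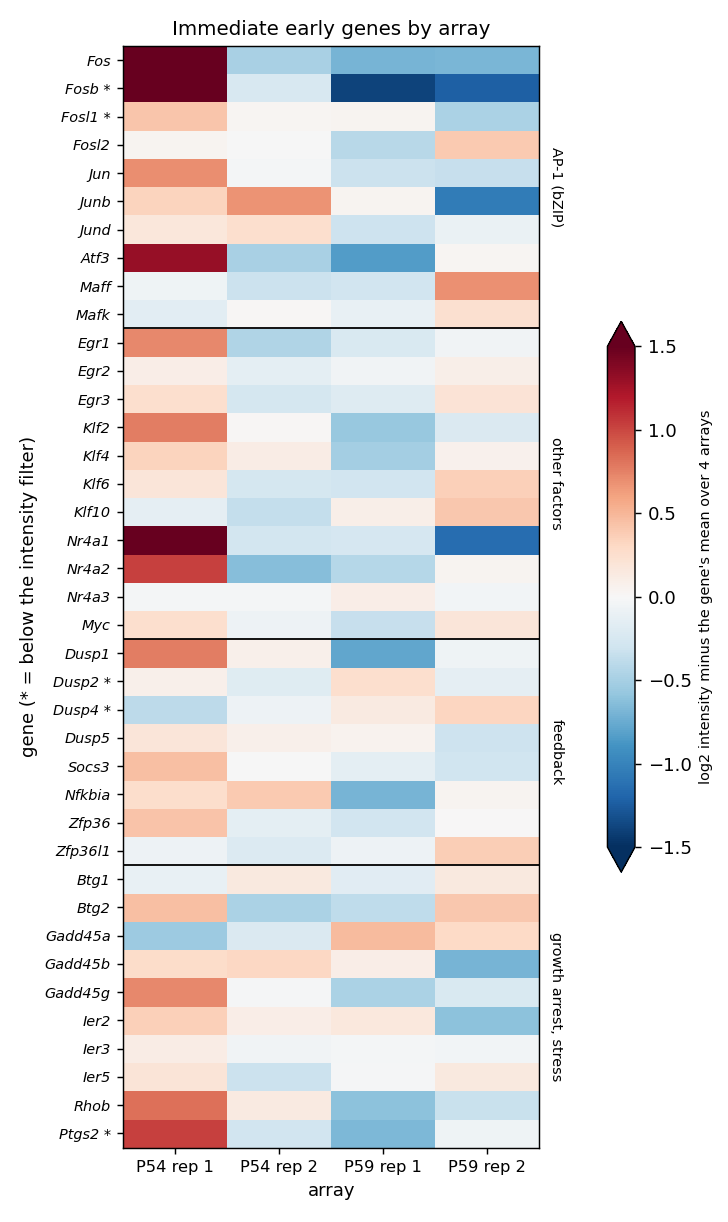
Log2 intensity of the 39 immediate early genes on each array (columns) minus the gene's own mean over the 4 arrays, with genes (rows) grouped by role and an asterisk on the 5 genes below the intensity filter. The darkest red cells, for Fos, Fosb, Nr4a1 and Atf3, lie in the column of P54 replicate 1.

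Among the AP-1 subunits Fosb and Fos spanned the widest range over the arrays, 4.25 and 2.55. Fos was at 12.19 and 9.85 on P54 replicates 1 and 2 and at 9.64 and 9.65 on P59 replicates 1 and 2. One array was thus far above the other three, which lay within 0.21 of each other. The P59 mean of 9.64 ± 0.01 was lower than the P54 mean of 11.02 ± 1.66 (SD, n = 2) by a log2 difference of -1.37 (SE 0.56, limma adjusted p = 0.726). Leaving out P54 replicate 1 gave -0.20. Leaving out P54 replicate 2 gave -2.55, with P54 replicate 1 then standing alone for P54.

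Fosb, which encodes another Fos partner of Jun, had a larger spread at a mean level below the intensity filter of 6.58. It measured 8.61 and 5.51 at P54 and 4.36 and 4.52 at P59. P54 replicate 1 was the 1 array above the filter, so that a fold over the others would be rough, and both P59 arrays lay below P54 replicate 2. Fosb was therefore left out of the fit. In the fit of all genes without that filter its log2 difference was -2.62 (limma adjusted p = 0.696), and the difference of means was -1.07 without P54 replicate 1.

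Atf3, a stress-induced factor of the same zipper family, stood at 10.09 and 8.30 at P54 and 7.94 and 8.81 at P59. Its groups overlapped, since P59 replicate 2 lay above P54 replicate 2. The log2 difference of -0.82 (95% interval -1.91 to 0.28, limma adjusted p = 0.883) became 0.08 without P54 replicate 1. Without P54 replicate 2 it was -1.71.

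The Jun genes varied less. Jun read 10.83 and 10.10 at P54 and 9.81 and 9.78 at P59, again highest on P54 replicate 1, with separate groups. Its log2 difference was -0.67 (SE 0.27, limma adjusted p = 0.723), and -0.31 without P54 replicate 1. Junb followed another pattern, at 8.09 and 8.44 at P54 and 7.80 and 6.71 at P59. Its highest array was P54 replicate 2 and its lowest P59 replicate 2, the array with the high ratio of 3′ to 5′ control signal. The log2 difference of Junb was -1.01 (SE 0.34, limma adjusted p = 0.575), or 2.01-fold lower at P59. It was -0.46 without P59 replicate 2, and -1.55 without P59 replicate 1. The part of RNA quality in the level of Junb was not tested. Jund, the Jun gene that most cells express without a stimulus, measured 10.85 and 10.93 at P54 and 10.37 and 10.58 at P59 (log2 difference -0.42, limma adjusted p = 0.863).

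Of the remaining AP-1 members, Maff, a small Maf protein, stood at 7.51 and 7.26 at P54 and 7.29 and 8.26 at P59, highest on P59 replicate 2. Its log2 difference of 0.39 became -0.09 without that array. Fosl2 and Mafk differed by -0.03 and 0.14, with ranges over the arrays of 0.81 and 0.40. Fosl1 lay below the filter, between 4.97 and 5.85, with its highest value on P54 replicate 1. Over the 8 AP-1 members tested the median log2 difference was -0.55, and -0.11 without P54 replicate 1.

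The promoters of the 4 members with the widest range over the arrays are shown to set their start regions side by side, with that of Dusp1, which holds a complete CRE. The windows run from 250 bases before to 50 bases after the start and come from RefSeq on GRCm38.p6. They are written along the gene's own strand, and capitals mark every motif match. The Fos window is chr12:85473640-85473939 (plus strand), that of Fosb is chr7:19309996-19310295 (minus), that of Nr4a1 chr15:101266596-101266895 (plus), that of Atf3 chr1:191183284-191183583 (minus) and that of Dusp1 chr17:26508423-26508722 (minus).
Fos: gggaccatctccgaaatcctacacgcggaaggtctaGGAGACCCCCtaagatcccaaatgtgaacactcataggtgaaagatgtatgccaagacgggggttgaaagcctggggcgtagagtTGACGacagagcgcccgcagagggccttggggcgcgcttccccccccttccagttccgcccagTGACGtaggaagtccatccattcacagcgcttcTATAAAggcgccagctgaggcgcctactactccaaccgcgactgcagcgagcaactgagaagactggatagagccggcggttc
Fosb: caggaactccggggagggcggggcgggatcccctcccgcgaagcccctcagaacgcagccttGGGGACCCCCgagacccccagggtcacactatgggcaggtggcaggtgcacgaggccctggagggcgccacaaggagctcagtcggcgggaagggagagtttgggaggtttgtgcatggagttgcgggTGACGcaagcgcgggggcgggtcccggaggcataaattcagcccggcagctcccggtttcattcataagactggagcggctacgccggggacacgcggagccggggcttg
Nr4a1: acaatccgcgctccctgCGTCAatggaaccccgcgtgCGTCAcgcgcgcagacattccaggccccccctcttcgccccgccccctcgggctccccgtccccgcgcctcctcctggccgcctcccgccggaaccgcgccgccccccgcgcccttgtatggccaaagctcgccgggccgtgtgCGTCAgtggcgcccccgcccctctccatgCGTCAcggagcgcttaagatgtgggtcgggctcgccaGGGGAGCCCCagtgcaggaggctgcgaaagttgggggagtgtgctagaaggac
Atf3: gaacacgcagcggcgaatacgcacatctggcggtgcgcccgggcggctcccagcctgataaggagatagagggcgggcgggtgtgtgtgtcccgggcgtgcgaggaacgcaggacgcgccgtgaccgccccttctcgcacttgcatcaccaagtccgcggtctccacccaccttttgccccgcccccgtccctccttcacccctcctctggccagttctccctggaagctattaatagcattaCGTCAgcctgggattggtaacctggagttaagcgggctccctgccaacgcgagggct
Dusp1: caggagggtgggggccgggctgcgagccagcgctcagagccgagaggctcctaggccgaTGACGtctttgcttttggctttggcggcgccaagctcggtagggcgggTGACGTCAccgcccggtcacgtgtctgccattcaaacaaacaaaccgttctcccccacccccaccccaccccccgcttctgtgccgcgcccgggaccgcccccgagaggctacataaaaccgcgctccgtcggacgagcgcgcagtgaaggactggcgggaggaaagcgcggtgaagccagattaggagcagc

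The promoter table held windows for 32 of the 39 members, and 5 motifs were searched on both strands together with TGACG, the core of the CRE, which was added after these windows were seen. The 7 members without a window, Fosl1, Egr1, Egr3, Ier2, Dusp4, Klf10 and Myc, were not searched. Sites more than 250 bases before the start were not searched either. TGACG, whose other strand reads CGTCA, stood in 18 of the 32 members (56.2%) and in 23.0% of all 27025 genes in the table. In Fos it lay at -129 to -125 and at -66 to -62 from the start, in Fosb at -60 to -56, in Atf3 at -7 to -3, and in Nr4a1 it occurred 4 times. The complete CRE, TGACGTCA, which contains TGACG on both strands, was found in Btg2, Dusp1 and Maff (9.38% of members against 2.03% of all genes). In Dusp1 it lay at -143 to -136. The CArG box bound by serum response factor matched in Dusp5, Egr2 and Zfp36 (9.38% against 1.81%), and the AP-1 site TGANTCA in Zfp36l1 (3.12% against 8.97%). NF-kB sites matched in 8 members (25.0% against 9.55%), among them Nfkbia, Fos, Fosb and Nr4a1, and TATAAA in 8 (25.0% against 15.7%), among them Fos. Base composition was not adjusted for, and a match is a match of letters, not a measured site.

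Of the zinc finger factors and nuclear receptors, Nr4a1 came closest to Fos. This orphan nuclear receptor read 11.37 and 9.43 at P54 and 9.44 and 8.56 at P59. P54 replicate 1 was highest and P59 replicate 2 lowest, while P54 replicate 2 and P59 replicate 1 differed by 0.02. The log2 difference was -1.40 (SE 0.52, 95% interval -2.56 to -0.24, limma adjusted p = 0.631). Without P54 replicate 1 it was -0.43, and without P59 replicate 2 it was -0.95. Without P54 replicate 2 it was -2.37.

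Nr4a2 measured 7.93 and 6.27 at P54 and 6.48 and 6.94 at P59. P54 replicate 1 thus exceeded the next array 1.98-fold, and the groups overlapped. P54 replicate 2 and P59 replicate 1 lay below the intensity filter of 6.58, which the mean of 6.90 passed with P54 replicate 1 included. The log2 difference of Nr4a2, -0.39, turned to 0.44 without P54 replicate 1. The other Nr4a2 probe sets all had means below the filter. In them P54 replicate 1 minus P54 replicate 2 was 0.83, 0.73, 0.20, -0.20 and 0.14. Nr4a3, the third receptor of this family, was nearly flat on the probe set used (6.70 to 6.83). Another probe set of Nr4a3 stood at 7.40 and 6.13 at P54 and 6.06 and 7.05 at P59. That set thus shared the high value on P54 replicate 1. The remaining Nr4a3 set, a dim one, was lowest on that array, at 3.79 and 4.02 at P54 and 3.91 and 4.27 at P59.

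Egr1, which binds GC-rich promoters after growth factor signals, read 11.43 and 10.25 at P54 and 10.47 and 10.65 at P59. Again P54 replicate 1 was highest, 1.71-fold above the next array, and the other three lay within 0.40 of each other. The log2 difference was -0.28 (95% interval -1.04 to 0.49, limma adjusted p = 0.954), and 0.31 without P54 replicate 1. Egr2 ranged from 9.71 to 9.96 and Egr3 from 10.29 to 10.81, and their differences of 0.04 and 0.01 changed sign with the array left out. Between highest and lowest array Egr1 thus spanned 1.17 and Egr2 0.25, where Fos spanned 2.55.

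Klf2, a factor of endothelial cells and lymphocytes, measured 10.19 and 9.44 at P54 and 8.86 and 9.21 at P59. The groups were separate, with P54 replicate 1 highest, and the log2 difference was -0.78 (SE 0.29, limma adjusted p = 0.618), or -0.40 without P54 replicate 1. Klf4, required for the skin barrier, stood at 12.62 and 12.40 at P54 and 11.78 and 12.35 at P59 (log2 difference -0.44, limma adjusted p = 0.871). Its difference was -0.16 without P59 replicate 1 and -0.73 without P59 replicate 2. Klf10, a target of TGF-beta, went the other way, at 8.96 and 8.73 at P54 and 9.18 and 9.49 at P59 (0.49, limma adjusted p = 0.801). Myc and Klf6 differed by -0.17 and 0.07, and both signs depended on the array left out. The 11 factors of this group had a median log2 difference of -0.17, which was 0.16 without P54 replicate 1.

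**Figure D2:**
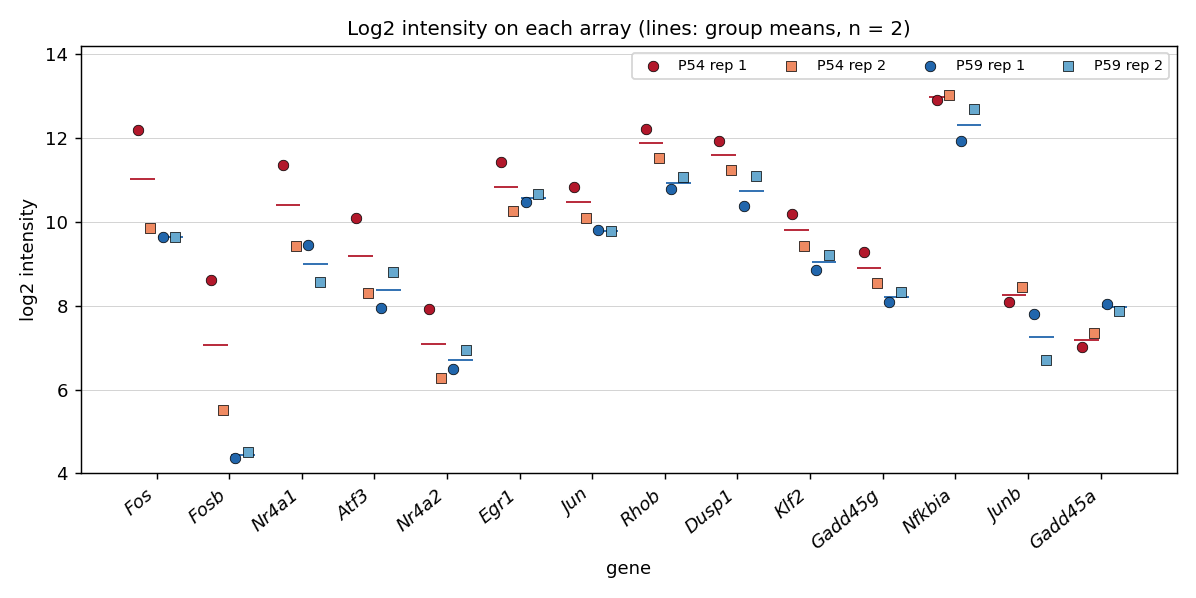
Log2 intensity (vertical axis) of 14 immediate early genes on each of the 4 arrays, with short lines at the group means (n = 2). For Fos, Fosb, Nr4a1, Atf3, Nr4a2 and Egr1 the point of P54 replicate 1 stands above the other three. Rhob, Dusp1, Klf2 and Gadd45g step down from P54 replicate 1 through P54 replicate 2 to the P59 arrays. For these genes P54 replicate 1 exceeds the next array by 0.69 to 0.75, near the 0.77 of Egr1.

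Of 6 feedback inhibitors tested, 5 had a lower mean at P59 (41.6% of all genes), with a median log2 difference of -0.37, or -0.21 without P54 replicate 1. Dusp1, a phosphatase that switches off p38 and JNK, read 11.93 and 11.25 at P54 and 10.39 and 11.10 at P59. Its groups were separate by 0.14, and the log2 difference was -0.85 (SE 0.31, limma adjusted p = 0.618). Without P54 replicate 1 it was -0.50, without P59 replicate 1 -0.49, and without P59 replicate 2 -1.20.

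Nfkbia, the inhibitor of NF-kB, measured 12.91 and 13.03 at P54 and 11.94 and 12.69 at P59. The P54 arrays agreed within 0.12 and P59 replicate 1 was lowest. The log2 difference was -0.66 (SE 0.28, limma adjusted p = 0.743). It was -0.72 without P54 replicate 1 and -0.29 without P59 replicate 1, and all 5 probe sets of Nfkbia were lower at P59, by -0.51 to -0.92. Socs3 stood at 9.14 and 8.69 at P54 and 8.55 and 8.39 at P59, a log2 difference of -0.44 (limma adjusted p = 0.870) on a probe set whose name marks possible cross-hybridisation, and its other 2 sets differed by -0.52 and -0.42. Without P54 replicate 1 the difference of Socs3 was -0.22. Zfp36, which destabilises cytokine mRNAs, differed by -0.29, and by -0.00043 without P54 replicate 1. Zfp36l1 differed by 0.29 and Dusp5 by -0.26, and without P59 replicate 2 these values were 0.071 and -0.081. Dusp2 and Dusp4 lay below the filter, at 6.15 to 6.59 and 5.90 to 6.61.

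Of 9 growth arrest and stress genes tested, 6 had a lower mean at P59 (41.6% of all genes, median log2 difference -0.07, and -0.16 without P54 replicate 1), and Rhob had the smallest p of any member. This small GTPase gene, induced by growth factors and DNA damage, read 12.22 and 11.53 at P54 and 10.78 and 11.06 at P59. Both P59 arrays lay below both P54 arrays, and the 2 groups were 0.47 apart at their nearest. The log2 difference of -0.95 (SE 0.28, 95% interval -1.57 to -0.34) corresponded to a 1.94-fold lower level at P59 (limma adjusted p = 0.483). Leaving out each array in turn gave -0.61 to -1.30, the smallest without P54 replicate 1.

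Gadd45a and Gadd45g, relatives that act in growth arrest and DNA repair, differed in opposite directions. Gadd45a measured 7.02 and 7.35 at P54 and 8.04 and 7.87 at P59. Both P59 arrays were higher, the log2 difference was 0.77 (SE 0.24, limma adjusted p = 0.498), and leaving out each array gave 0.61 to 0.93. Gadd45g stood at 9.28 and 8.54 at P54 and 8.08 and 8.33 at P59, a difference of -0.70 (SE 0.28, limma adjusted p = 0.715) that was -0.33 without P54 replicate 1. Gadd45b read 8.56 and 8.58 at P54 and 8.38 and 7.58 at P59. It was lowest on P59 replicate 2, and its difference of -0.59 (limma adjusted p = 0.800) became -0.19 without that array. Its other 2 probe sets differed by -0.04 and -0.01, and the brighter of them was highest on P59 replicate 2 (7.60). The lower level of Gadd45b thus rested on the set used.

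Ier2, like the Gadd45b set used, was lowest on P59 replicate 2: 9.69 and 9.43 at P54 against 9.49 and 8.72 at P59. Its difference was -0.46, or -0.07 without P59 replicate 2. The part of RNA quality in these levels was not tested. Ier3 and Ier5, of the same naming family, ranged over 0.16 and 0.51. Ptgs2, the inducible prostaglandin synthase, lay below the filter at 5.75 and 4.45 at P54 and 4.05 and 4.67 at P59. P54 replicate 1 was again the highest, 2.11-fold above the next array, though so dim a probe set gives only a rough ratio. Btg1 and Btg2, antiproliferative genes, differed by -0.03 and 0.03. Btg2 was high on P54 replicate 1 and P59 replicate 2 (9.71 and 9.67) and low on the other arrays (8.79 and 8.88).

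Of the 34 members tested, 23 had a lower mean at P59, beside 41.6% of all genes tested. In limma 9 were lower at an unadjusted p under 0.05 (Rhob, Junb, Klf2, Dusp1, Nr4a1, Gadd45g, Jun, Fos and Nfkbia) and 1 was higher (Gadd45a), against 3.01% and 3.47% of all genes tested. The groups did not overlap for 13 members that were lower and 3 that were higher, against 14.8% and 18.9% of all genes. The adjusted threshold was passed by 0 members and by 0.0183% of all genes. Their median log2 difference was -0.28, and that of all 10916 genes 0.05. Without the filter the 39 members had a median of -0.29. These counts describe the set and do not test it.

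Much of this rested on P54 replicate 1. Without it the median of the 34 members was -0.01, beside 0.12 over all genes. In that fit 1 member, Junb, had an unadjusted limma p under 0.05, against 5.11% of all genes, or 1.94% in the lower direction, and 19 members were lower by sign (35.4%). Both P59 arrays lay below P54 replicate 2 for 13 members (20.6% of all genes), which are those with separate and lower groups, for which this holds by construction. Both lay above it for 11 (46.1% of all genes). Without P59 replicate 2, the array with the high 3′ to 5′ ratio, the median was -0.37 and 8 members had an unadjusted limma p under 0.05 (6.35% of all genes), 7 of them lower (3.22%). Without P54 replicate 2 there were 12 such members (2.5% of all genes), 11 of them lower (1.55%), and without P59 replicate 1 there were 9 (18.6%), 5 of them lower (9.22%). Rhob did not pass that limit without P54 replicate 1, and Junb did not without P59 replicate 2, while each passed it when any other array was left out. With P54 replicate 2 and P59 replicate 1 alone, a comparison of single arrays with no test, the median was -0.13. Each fit without an array left 1 sample in that array's group, so it does not measure how that group varies, and no p-values are given for it.

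**Figure D3:**
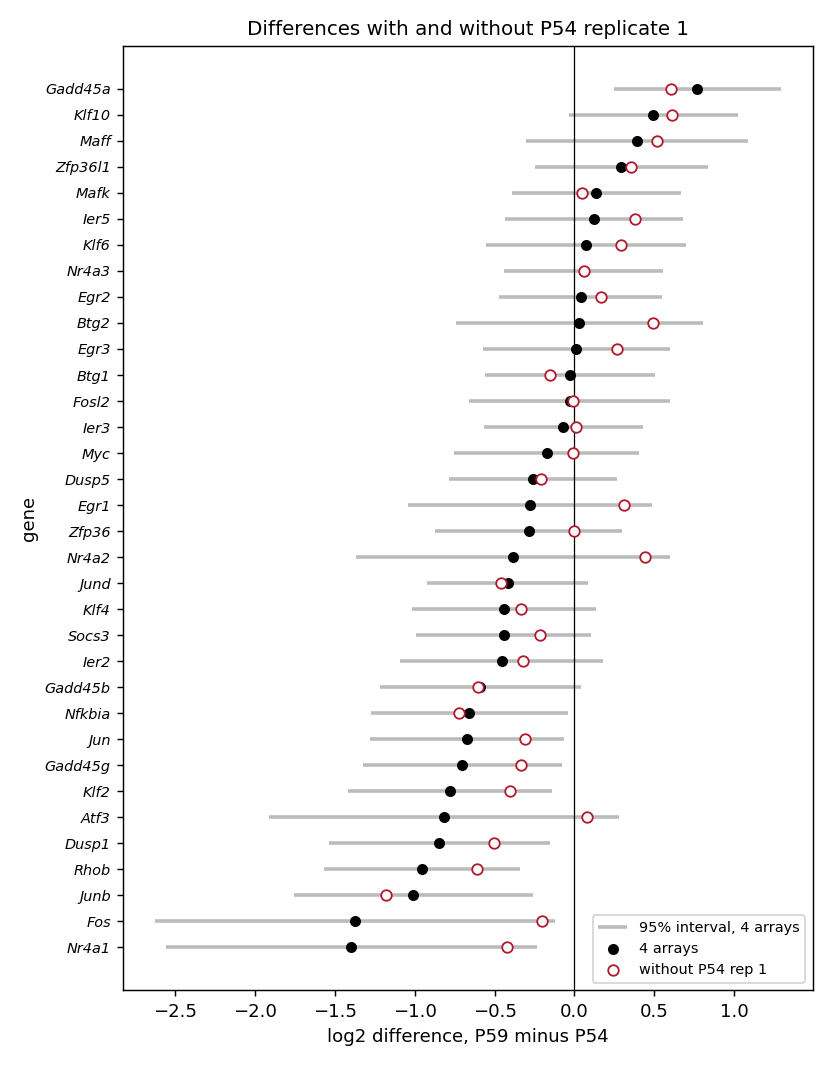
Log2 difference between P59 and P54 (horizontal axis) for the 34 members above the intensity filter, with all 4 arrays (black points, grey bars for limma's 95% intervals) and without P54 replicate 1 (open red circles). Without that array Fos moves from -1.37 to -0.20 and Nr4a1 from -1.40 to -0.43, while Junb, Nfkbia, Jund and Gadd45b stay within 0.20 of their first value.

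P54 replicate 1 was the highest array for 21 of the 34 members, beside 22.7% of all genes, and the lowest for 2, Gadd45a and Mafk (8.12% of all genes). It exceeded P54 replicate 2 for 27 members (72.8% of all genes), and by at least 0.5 on the log2 scale for 14 (8.87%). P54 replicate 1 was at least 2-fold above every other array for 8 of the 10916 genes tested (0.0733%), and 3 of these 8 were the members Fos, Nr4a1 and Atf3. The intensity filter uses the mean over the 4 arrays, so a gene could enter these counts through P54 replicate 1 itself. Fosb and Ptgs2, which that filter left out, were higher on P54 replicate 1 than on the next array by 3.10 and 1.08. Fos had the largest such excess of all genes tested (2.34 on the log2 scale) and Nr4a1 the next largest (1.92). An excess of at least 2-fold over every other array was reached by 0 members on P54 replicate 2, P59 replicate 1 and P59 replicate 2. Of all genes, 0.202%, 0.275% and 0.348% reached it there. P54 replicate 2 was highest for 4 members (13.5% of all genes) and lowest for 10 (42%). P59 replicate 1 was highest for 2 (17.5%), and P59 replicate 2 was highest for 7 (46.4%) and lowest for 8 (23.3%), among them Junb, Ier2 and Gadd45b. In contrast, 14 members were lowest on P59 replicate 1 (26.5% of all genes), among them Dusp1, Rhob, Klf2, Klf4 and Nfkbia. Over the members the range between highest and lowest array had a median of 0.88, beside 0.49 over all genes, and it reached 1 for 15 of 34 (10.4% of all genes). Whole skin was measured, so fewer cells of a type and less RNA per cell cannot be told apart.

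**Figure D4:**
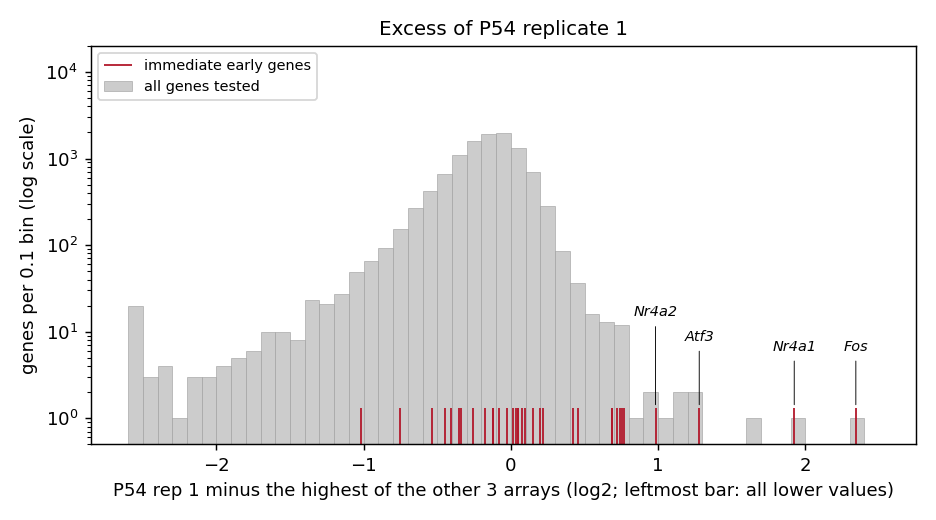
Number of genes (log scale, all 10916 tested, grey bars) by the log2 intensity of P54 replicate 1 minus the highest of the other 3 arrays, with the 34 members as red ticks. Fos and Nr4a1 stand at the far right, at 2.34 and 1.92.

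Probe sets of 1 gene did not always agree. Of the 18 members with several, 10 had all their sets on one side of 0 and 8 had sets on both. The first group includes Gadd45b, with sets at -0.59, -0.04 and -0.01. Jun differed by -0.67 and -0.33 on its 2 sets, both highest on P54 replicate 1, and Klf4 by -0.44 and -0.99. A second Btg2 set was lower at P59 (-1.12, with 9.22 and 9.05 against 8.28 and 7.76) where the set used differed by 0.03. Klf6 had 4 sets within 0.07 of 0 and 1 at -1.53. A Btg1 set with a mean below the filter, at -1.02, was high on P54 replicate 2 alone (8.21 against 5.42 to 5.93). Taking the mean of all sets turned the sign of Btg2 (-0.54), Klf6 (-0.30), Ier5 (-0.09) and Fosl2 (0.14).

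**Figure D5:**
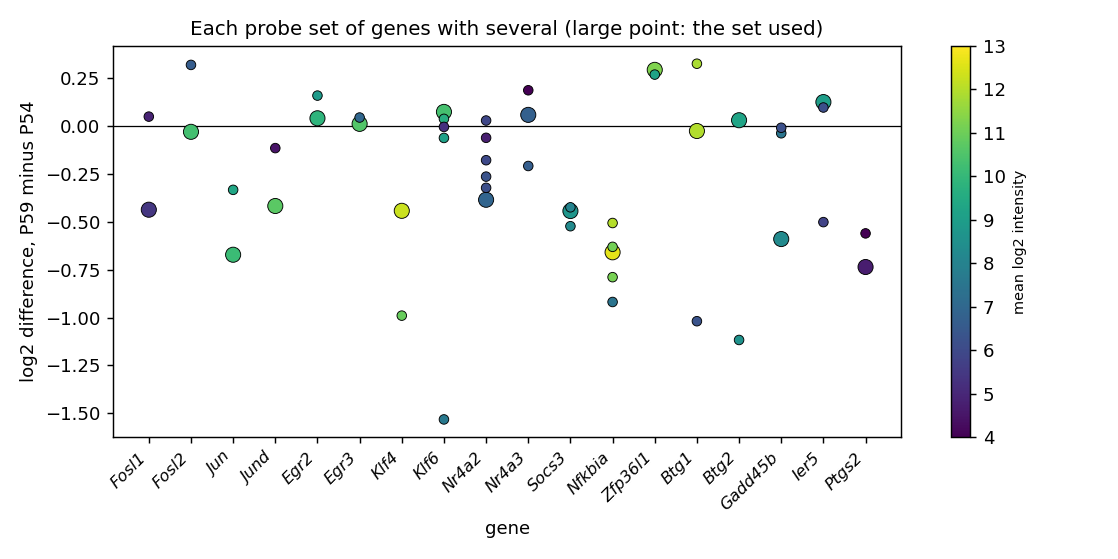
Log2 difference between P59 and P54 (vertical axis) for every probe set of the 18 members with several, coloured by mean log2 intensity, with the set used for the gene drawn large. The sets of Nfkbia and Socs3 lie together, whereas 1 set each of Klf6, Btg1 and Btg2 lies far below the rest.

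The kinases and promoter-bound factors upstream of the immediate early genes were highest on P54 replicate 1 in 3 of 15 cases (22.7% of all genes). Of these 15, 1 had an unadjusted limma p under 0.05, beside 6.49% of all genes. It was Creb1, the factor that binds the CRE, at 9.64 and 9.98 at P54 and 8.95 and 9.02 at P59 (log2 difference -0.82, limma adjusted p = 0.478). Srf, the gene of serum response factor, measured 8.80 and 8.29 at P54 and 7.95 and 8.11 at P59 (-0.51, limma adjusted p = 0.811, and -0.26 without P54 replicate 1). The median of this list was -0.01.

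A further list held 31 tested genes that are also rapidly induced. In it 6 genes were lower and 1 higher at an unadjusted limma p under 0.05 (3.01% and 3.47% of all genes), and 18 were highest on P54 replicate 1 (22.7%). Its median was -0.14, and -0.05 without that array. Per1, a clock gene that also responds to light and glucocorticoids, stood at 10.63 and 10.23 at P54 and 9.05 and 8.81 at P59 (2.83-fold lower, limma adjusted p = 0.106). Errfi1, a feedback inhibitor of the EGF receptor, was at 12.21 and 11.73 against 9.49 and 11.03 (-1.71, limma adjusted p = 0.348). Its difference was -0.95 without P59 replicate 1. Csrnp1, an AXIN1-induced nuclear factor, was at 8.77 and 7.99 against 7.14 and 7.38 (-1.12, limma adjusted p = 0.382), and differed by -0.72 without P54 replicate 1. The matricellular gene Ccn1 shared the Fos pattern, at 9.89 and 8.77 at P54 and 8.53 and 8.84 at P59. Secreted factors of the later response and other zipper proteins had 0 genes of 8 and 0 of 10 at an unadjusted limma p under 0.05 (6.49% of all genes), with medians of 0.16 and -0.01.

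Several other stress genes were also highest on P54 replicate 1. Of 10 heat shock and chaperone genes tested, 8 were highest on that array (22.7% of all genes), among them Hspa1a at 10.77 and 9.97 at P54 and 9.73 and 10.03 at P59. Dnajb1, a partner of Hsp70, was the 1 gene of that list with an unadjusted limma p under 0.05 (log2 difference -0.77, adjusted p = 0.511), beside 6.49% of all genes. Of 10 glucocorticoid-responsive genes, 2 were lower (Per1 and Errfi1) and 1 was higher (the metallothionein gene Mt1, by 0.57) at an unadjusted limma p under 0.05. The shares of all genes were 3.01% and 3.47%. Tsc22d3, a standard target of that hormone, was highest on P59 replicate 2 (12.97) and lowest on P59 replicate 1 (11.68). Fkbp5 and Mt2, of the same list, were higher on both P59 arrays than on either P54 array (0.64 and 0.51, beside 18.9% of all genes). By sign 5 of the 10 were lower at P59 (41.6% of all genes). Of 13 clock genes tested, 9 had a lower mean at P59 (41.6% of all genes). At an unadjusted limma p under 0.05, 3 were lower (Dbp, Per1 and Ciart) and 0 higher, beside 3.01% and 3.47% of all genes. Dbp and Ciart were lower at P59 on both arrays (-0.79 and -0.73, beside 14.8% of all genes), and P54 replicate 1 was not their highest array. Arntl was higher on both P59 arrays (0.46, beside 18.9% of all genes), and the groups of Per2 and Nr1d1 overlapped. The part of heat shock, glucocorticoids and time of day in the members' levels was not tested.

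Markers of the cell types of skin were summed for each array. The summed intensity of the tested markers, on the log2 scale, was 16.19 and 16.26 on P54 replicates 1 and 2 for 7 keratinocyte genes, 16.61 and 16.57 for 8 fibroblast genes, 11.44 and 11.24 for 8 endothelial genes and 17.33 and 16.99 for 12 skeletal muscle genes. On the P59 arrays these sums were 16.04 and 15.95, 16.58 and 16.66, 11.35 and 11.20, and 17.39 and 16.93. Summed macrophage markers, over 7 genes, were 12.83 and 12.64 at P54 and 12.87 and 13.38 at P59. Adipocyte markers (7 genes) were 14.18 and 14.03 against 13.75 and 13.90, smooth muscle markers (6 genes) 13.73 and 13.44 against 13.85 and 13.22, and mast cell markers (5 genes) 11.17 and 10.83 against 11.28 and 11.33. Schwann cell markers (3 genes) were 13.01 and 12.46 against 12.48 and 12.68, T cell markers (3 genes) 9.32 and 8.93 against 9.24 and 9.46, and neutrophil markers 7.04 and 7.26 against 8.75 and 9.55. The last sum held 2 genes, S100a8 and S100a9, which stressed keratinocytes also express, and the other neutrophil markers were below the filter or had no probe set. S100a8 differed by 2.17 (limma adjusted p = 0.0387), a call that was lost with no filter, with a stricter one, with the mean of all probe sets, after repeated quantile normalization or centring, and with a pseudocount. Of the red blood cell markers Alas2 alone passed the filter, at 6.64 to 6.81. The part of cell composition in the members' levels was not tested.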

How the data were processed

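Per the labels, biotin-labelled cRNA from total RNA of 4 dorsal skin samples was hybridised to Affymetrix arrays. The deposited table, made by the authors, gives linear intensity for each probe set, and the submitters' processing notes name RMA and Affymetrix Expression Console, with no version. Genome build and annotation release were not given in the sources used here. Intensities ran from 6.41 to 24000 and were taken to log2 with no pseudocount. Of 45101 probe sets, 34945 had 1 gene symbol in the platform annotation of GEO, of unknown age, 932 had several and were left out, and 64 were control sets. Of the sets with 1 symbol, 34741 matched RefSeq (GRCm38.p6) by Entrez identifier, with 0 renamed. Genes with a mean log2 intensity over the 40th percentile (6.58) were fitted in limma 3.58.1 (R 4.3.3, lmFit and eBayes, 2 residual and 8.18 prior degrees of freedom), with Benjamini-Hochberg adjustment over 10916 genes. An exact permutation test of 2 arrays against 2 cannot reach 0.05. The procedure was tested on simulated data.

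The members, gene lists and tests were chosen with earlier results of these data known. Members given array by array are those whose groups do not overlap and differ by at least 0.5, those at an unadjusted p under 0.05, those whose arrays span at least 1 (log2), and the main AP-1 and Egr genes. Klf4, Klf10, Socs3, Ier2 and Ccn1 were chosen after their values were seen. Of each other list, up to 4 genes with the smallest p and 4 with the widest range could be named. Alternatives changed the filter, the summary of probe sets, the normalization, a pseudocount, the variance model, array weights, the replicate block and the arrays included.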

Additional observations from a re-analysis of the deposited data

How the results depend on the processing

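In limma 2 genes passed the adjusted threshold, and 0 did so with no filter (1122 at an unadjusted p under 0.05), a 60th percentile filter (457), the mean of all probe sets (705), repeated quantile normalization (727), centring on the median (721) or a pseudocount of 16 (705). Array weights gave 9, and leaving out each array gave 29 to 402. The replicate block gave 156, among them Fos (limma adjusted p = 0.00126) and Nr4a1 (0.000941), which have adjusted p of 0.726 and 0.631 without it. Fos went from 12.19 to 9.64 between the samples numbered 1, and from 9.85 to 9.65 between those numbered 2. Its small p with the block does not come from agreement between these changes. Same-numbered samples did not deviate together (correlation -0.037), so the numbers were not taken as pairs and no crossed pairing was run. Members at an unadjusted limma p under 0.05 numbered 10, with 1 to 12 when each array was left out. The members' median lay between -0.49 and -0.01 when arrays were left out.

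Of the 34 members tested, 17 kept their sign under all 14 alternatives. The mean of all probe sets gave -0.30 for Klf6, 0.14 for Fosl2, -0.54 for Btg2 and -0.094 for Ier5. Egr3 was -0.016 after repeated quantile normalization and -0.0022 after centring. With P54 replicate 2 and P59 replicate 1 alone, chosen after seeing the data, Egr1 was 0.22, Klf6 -0.032, Nr4a1 0.019, Ier3 0.015, Ier2 0.066, Mafk -0.13 and Nr4a2 0.21. Leaving out each array turned the sign of 15 members: Atf3 (-1.71 to 0.081), Btg1 (-0.18 to 0.13), Btg2 (-0.43 to 0.49), Egr1 (-0.86 to 0.31), Egr2 (-0.085 to 0.16), Egr3 (-0.25 to 0.27), Fosl2 (-0.43 to 0.37), Ier3 (-0.15 to 0.012), Ier5 (-0.13 to 0.38), Klf6 (-0.25 to 0.40), Maff (-0.095 to 0.88), Mafk (-0.038 to 0.31), Myc (-0.44 to 0.090), Nr4a2 (-1.22 to 0.44) and Nr4a3 (-0.0088 to 0.12). The cause of these changes was not tested. Signal over background limits Fosb, Fosl1, Dusp2, Dusp4 and Ptgs2, which were below the filter.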

Other observations

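Outside the immediate early set, 5 of the 8 genes at least 2-fold higher on P54 replicate 1 than on each other array were not members, and they are named after their values were seen. Nmrk2, a nicotinamide riboside kinase of muscle, was at 8.48 and 6.68 on P54 replicates 1 and 2 and at 6.82 and 6.19 on P59 replicates 1 and 2. Apold1, an early-response gene of endothelial cells, was at 8.14 and 6.80 against 6.86 and 6.77. Padi2, a protein citrullinating enzyme, was at 8.66 and 7.56 against 7.54 and 7.39. Epgn, an EGF receptor ligand of skin, was at 8.44 and 7.25 against 5.92 and 6.42, so that its P59 arrays were also below P54 replicate 2 (log2 difference -1.67, limma adjusted p = 0.256). The fifth was Ccn1, a member of the list of other rapidly induced genes.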
